A study of Mus musculus with 27 samples.

Results

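The genes of T cells and cytotoxic lymphocytes were read as the levels of 10 transcripts chosen by symbol: Cd3d, Cd3e, Cd3g, Cd4, Cd8a, Cd8b1, Gzmk, Gzma, Nkg7 and Pdcd1. All 10 were present among the 36333 genes of the expression table. Levels came from RNA-seq of liver, omental adipose tissue and skeletal muscle of MlxKO mice at 5 months (4 samples per tissue) and 20 months (5 samples per tissue), 27 samples in all. The study's methods give the animals as male. By the numbers in the labels, 4 animals aged 5 months, called A, B, C and D here in the order of those numbers, each gave all 3 tissues. The 20-month samples are numbered separately in each tissue, and their sample names carry an 18 where the labels give 20 months. Every animal was homozygous for floxed Mlx (Mlx Flox/Flox) and carried the Gt(ROSA)26Sortm1(cre/ERT2)Tyj allele, a tamoxifen-inducible Cre recombinase expressed from the ROSA26 locus, and each received daily intraperitoneal tamoxifen in corn oil at weaning. Excision was thus meant to be body-wide and at both ages, and its extent in lymphocytes was not measured here. By the paper's PCR measure relative to wild-type tissue, more Mlx transcript was left in skeletal muscle than in liver or adipose tissue. That held in young and in old MlxKO mice. The paper lists those old mice at 18 months, under numbers that end like those of the 20-month samples here. Wild-type animals were not analysed here, so every age difference below is one within MlxKO mice.

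T cells recognise antigen through a receptor whose signal is carried by the CD3 chains, products of Cd3d, Cd3e and Cd3g, which makes these transcripts a measure of T cells in a tissue. Helper and regulatory T cells carry the coreceptor CD4, and cytotoxic T cells the coreceptor CD8, a dimer of the Cd8a and Cd8b1 products. Gzma and Gzmk encode granzymes, the serine proteases of killer cell granules, and Nkg7 a granule membrane protein, and all of them are used by natural killer (NK) cells as well as by T cells. Pdcd1 encodes PD-1, an inhibitory receptor of activated and chronically stimulated T cells. Liver and visceral fat hold resident lymphocytes, and rested skeletal muscle holds few. The Mlx protein pairs with MondoA or ChREBP to bind E boxes and, classically, longer carbohydrate response elements made of E box-like parts. Its network opposes and overlaps that of Myc.

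On GRCm38.p6 the CD3 genes lie side by side on chromosome 9, Cd3g at chr9:44969572-44980431 (minus strand), Cd3d at chr9:44981769-44987052 (plus) and Cd3e at chr9:44998735-45009663 (minus). Cd8b1 (chr6:71322788-71337492) and Cd8a (chr6:71373427-71379171) are neighbours on the plus strand of chromosome 6, which also holds Cd4 (chr6:124864693-124888247, minus). Gzma (chr13:113093824-113100981) and Gzmk (chr13:113171630-113180965) are neighbours on the minus strand of chromosome 13. Nkg7 lies at chr7:43437138-43438246 (plus) and Pdcd1 at chr1:94038305-94052553 (minus). Of the 50-base words of Cd8b1 exons, 6.0% also occur in other genes, so its reads are slightly less certain.

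The stretch from 250 bases before to 50 bases after the transcription start of 8 of the 10 genes was read from RefSeq on the GRCm38.p6 build. The promoters of a pair of genes that rose with age (Cd8a and Nkg7) and of a pair that did not pass the test in any tissue (Gzma and Pdcd1) are printed 5′ to 3′ so that they can be compared, from chr6:71373177-71373476 (plus strand), chr7:43436888-43437187 (plus strand), chr13:113100932-113101231 (minus strand) and chr1:94052504-94052803 (minus strand). Capitals mark every match, on either strand, to 4 short motifs: the E box CACGTG, the RUNX core TGTGGT (its reverse complement on the other strand), an ETS site AGGAAG and the E-protein box CAGCTG. No match overlapped another in the 4 windows printed.
Cd8a: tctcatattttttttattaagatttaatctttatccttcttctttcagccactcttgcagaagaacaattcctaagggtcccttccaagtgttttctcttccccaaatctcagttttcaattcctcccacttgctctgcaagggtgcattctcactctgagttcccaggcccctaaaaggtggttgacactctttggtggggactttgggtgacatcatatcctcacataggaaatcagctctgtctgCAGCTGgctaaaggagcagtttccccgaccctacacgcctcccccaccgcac
Nkg7: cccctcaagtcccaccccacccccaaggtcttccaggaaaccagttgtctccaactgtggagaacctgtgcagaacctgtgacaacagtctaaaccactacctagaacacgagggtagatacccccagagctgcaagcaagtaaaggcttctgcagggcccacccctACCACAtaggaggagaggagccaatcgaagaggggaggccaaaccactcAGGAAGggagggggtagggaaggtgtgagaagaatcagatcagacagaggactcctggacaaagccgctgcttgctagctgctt
Gzma: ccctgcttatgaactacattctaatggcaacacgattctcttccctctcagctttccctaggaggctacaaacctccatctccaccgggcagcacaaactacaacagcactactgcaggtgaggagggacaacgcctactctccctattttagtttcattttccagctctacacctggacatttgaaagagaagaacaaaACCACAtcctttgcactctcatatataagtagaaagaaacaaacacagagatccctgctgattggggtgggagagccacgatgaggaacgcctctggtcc
Pdcd1: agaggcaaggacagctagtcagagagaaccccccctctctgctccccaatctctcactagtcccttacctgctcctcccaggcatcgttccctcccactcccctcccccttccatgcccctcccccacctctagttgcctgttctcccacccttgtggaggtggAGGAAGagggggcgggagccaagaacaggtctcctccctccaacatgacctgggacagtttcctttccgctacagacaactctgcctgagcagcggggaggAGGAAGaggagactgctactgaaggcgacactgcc
The E box was absent from the windows of all 8 genes and present in 7.15% of 32851 mouse promoters of this length. Carbohydrate response elements were not searched for, so this does not speak to every kind of Mlx site. The RUNX core was present in Nkg7 and Gzma (16.8% of all promoters). The ETS site was in Pdcd1, Nkg7, Cd3d and Cd3e (35.4% of all promoters) and the E-protein box in Cd8a and Cd3g (16.3% of all promoters). The pair that rose thus shared no motif of the 4 that the other pair lacked. These matches describe letters in a window, not binding.

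The libraries held 14384695 to 25673919 reads on genes. Deposited values are reads per total of the library, multiplied by a scaling factor for each library, and 1 read was worth 0.0234 to 0.0389 in adipose tissue, 0.0501 to 0.0800 in liver and 0.0652 to 0.0806 in muscle, so a value of 0.2 in liver or muscle rests on about 3 reads. The tissue labels fitted the defining markers: the 6 hepatocyte genes summed to at least 50748 in liver, the 6 adipocyte genes to at least 6264 in adipose tissue and the 6 myofibre genes to at least 130530 in muscle. Mlx itself was read at 7.04 to 32.4 across the 27 samples, but its table row counts reads of the whole gene, the exons left after excision included, so it does not check the labels. Trac, Trbc1 and Trbc2, the constant parts of the T cell receptor chains, are listed at 0 in every sample and so measure nothing here. No 2 libraries of a group held the same values.

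T cell and cytotoxic transcripts were most abundant in adipose tissue, lower in liver and close to the limit of counting in muscle. Summed over the 10 genes, adipose samples held 20.45, 10.7, 15.9 and 10.7 at 5 months and 44.4, 9.73, 84.6, 24.05 and 55.1 at 20 months. Liver samples held 2.67, 3.13, 2.28 and 4.72 at 5 months and 5.19, 6.16, 22.8, 5.05 and 15.0 at 20 months, with no overlap between the ages. Muscle samples held 0.157 to 0.806 at 5 months and 0.362 to 1.10 at 20 months, which is 2 to 16 reads over all 10 genes. In muscle, Cd8b1, Cd3g and Gzmk were listed at 0 in all 4 samples aged 5 months, and no gene reached more than 5 reads in any sample of either age.

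**Figure D1:**
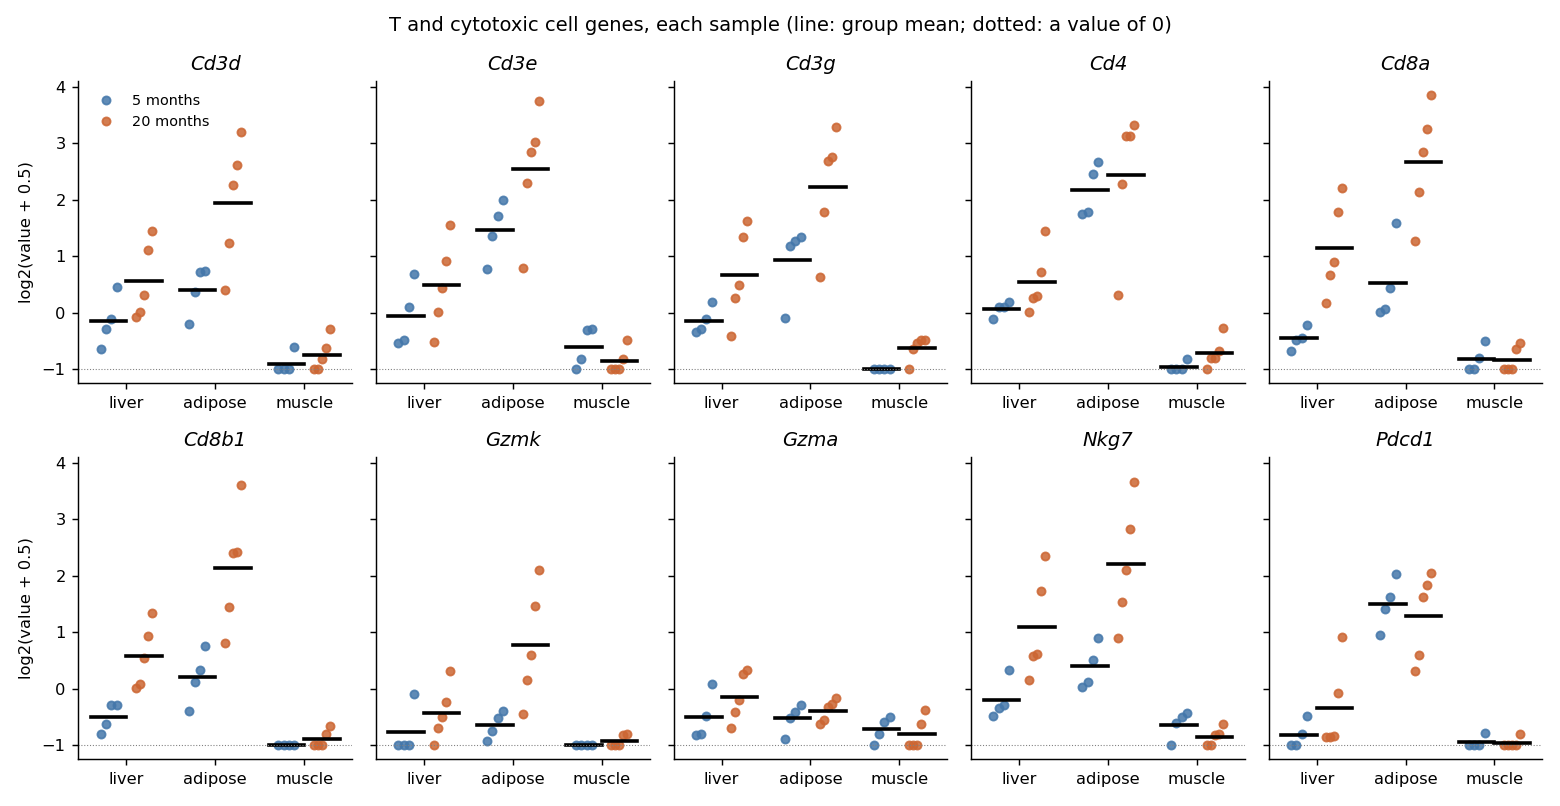
Level of each of the 10 genes in every sample, as log2(value + 0.5), for 3 tissues and 2 ages (blue: 5 months, n = 4; orange: 20 months, n = 5). The black line is the group mean and the dotted line a value of 0. Cd8a and Cd8b1 stand higher at 20 months in liver and adipose tissue, Pdcd1 overlaps between the ages in both, and all 10 genes lie near 0 in muscle.

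Compared per kilobase of exon, Nkg7 led in liver at both ages, at 0.434 ± 0.272 in the young (SD over 4 samples) and 2.20 ± 1.84 in the old (SD over 5). At 5 months the next 6 liver genes lay between 0.128 and 0.244 per kilobase and did not separate beyond their spread. In adipose tissue the order differed between the ages. At 5 months Pdcd1 (1.26 ± 0.465 per kilobase), Cd4 (1.04 ± 0.374) and Nkg7 (0.934 ± 0.425) headed the list with overlapping spreads, and Cd8a stood eighth at 0.306 ± 0.261. At 20 months Nkg7 (5.75 ± 4.74 per kilobase), Cd8b1 (3.35 ± 2.75) and Cd3d (2.34 ± 1.72) came first, and Pdcd1 stood eighth at 1.14 ± 0.659. Neighbours in the 20-month order differed by less than their spread.

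In adipose tissue the CD3 genes stood above the young range in 4 of 5 old samples, and in liver in 2 of 5 for Cd3d and Cd3e and 4 of 5 for Cd3g, but none of the 3 passed the test in limma in any tissue. In adipose tissue Cd3d was 1.15, 0.369, 0.796 and 1.16 in animals A, B, C and D at 5 months, and 4.30, 0.818, 8.65, 1.85 and 5.65 in samples 36 to 40 at 20 months. Of the 20-month samples, 37 fell inside the 5-month range and the other 4 lay above it. The log2 change was 1.53 ± 0.52 (SE), with an adjusted p of 0.0702 in limma, the test across all 18121 genes that passed the filter in adipose tissue. Cd3g changed by 1.30 ± 0.53 on the log2 scale (limma adjusted p = 0.109) and Cd3e by 1.08 ± 0.52 (limma adjusted p = 0.162), and in both genes 4 of 5 samples at 20 months exceeded every sample at 5 months, sample 37 being the exception. Without sample 37 the changes were 1.92 for Cd3d, 1.70 for Cd3g and 1.52 for Cd3e, and all 3 passed (limma adjusted p = 0.0376, 0.0486 and 0.0466). In the count tests on the recovered reads of adipose tissue, DESeq2 called all 3 (adjusted p = 0.00281 for Cd3d, 0.0195 for Cd3g and 0.0387 for Cd3e) and edgeR called Cd3d (adjusted p = 0.0451). In a bulk sample, a change in the number of T cells and a change in the RNA of each T cell cannot be told apart, and this holds for every gene below.

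In liver, Cd3d, Cd3e and Cd3g had log2 changes of 0.71 ± 0.34, 0.54 ± 0.40 and 0.80 ± 0.37 (limma adjusted p = 0.174, 0.368 and 0.1502). The CD3 genes together gave 13, 14, 15 and 33 reads per liver library at 5 months and 32, 33, 137, 33 and 102 at 20 months. Samples 18 and 74 stood high and the other 3 reached no more than the highest 5-month animal, D. Sample 74 also had the lowest sum of hepatocyte genes, 50748, where the other old livers held 95979 to 108850, and the part of this in the T cell values was not tested. Cd3e overlaps the predicted genes Gm48719 (opposite strand) and Gm48720 (same strand), and how the count table divided shared reads is not given in the sources used here.

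The CD8 coreceptor genes rose in both liver and adipose tissue. In liver Cd8a was 0.127, 0.364, 0.214 and 0.240 in the animals aged 5 months and 1.37, 1.10, 4.14, 0.625 and 2.96 in samples 16, 17, 18, 19 and 74 at 20 months. Every 20-month liver exceeded every 5-month liver, the means differing 8.63-fold (0.236 ± 0.0977 against 2.04 ± 1.46, SD). The young Cd8a values rest on 2 to 5 reads per library, so the fold is imprecise. The log2 change was 1.60 ± 0.37 (SE) with a limma adjusted p of 0.0179. Cd8b1 in liver was 0.318, 0.145, 0.0713 and 0.320 at 5 months, or 1 to 5 reads, and 0.560, 0.952, 2.02, 0.511 and 1.40 at 20 months, again without overlap, with a log2 change of 1.08 ± 0.28 (limma adjusted p = 0.0268). These were the only 2 of the 10 genes called in liver, both higher, where 8.09% of all tested genes were called higher and 6.93% lower. They were also the only 2 whose ages did not overlap, which was so upward for 7.97% of tested genes. Cd8a passed with any 1 library left out. Cd8b1 lost its call without 20-month sample 17 or 18 or without animal B or C (limma adjusted p = 0.0533 to 0.0764).

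In adipose tissue Cd8a was 2.52, 0.517, 0.863 and 0.553 at 5 months and 6.72, 1.91, 14.04, 3.91 and 9.08 at 20 months. Animal A stood above the other 3 young animals and above old sample 37, and the remaining 4 old samples exceeded all the young ones. The log2 change was 2.14 ± 0.52 (limma adjusted p = 0.0322), a 6.41-fold difference of means. Cd8b1 was 1.18, 0.259, 0.763 and 0.582 at 5 months and 4.78, 1.25, 11.7, 2.23 and 4.87 at 20 months. Its 5 old samples exceeded all 4 young ones, the only one of the 10 genes to do so in adipose tissue, where 7.37% of tested genes did. Its log2 change was 1.94 ± 0.51 (limma adjusted p = 0.0375).

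Cd4 passed the test in neither tissue. In adipose tissue it was 5.01, 2.88, 5.91 and 2.97 at 5 months and 8.28, 0.740, 8.24, 4.34 and 9.59 at 20 months, so the old samples lay on both sides of the young ones. The log2 change was 0.26 ± 0.57 (limma adjusted p = 0.758). In liver Cd4 was 0.428 to 0.640 at 5 months and 0.509, 0.701, 2.23, 0.738 and 1.15 at 20 months, 4 of 5 above the young range, with a change of 0.48 ± 0.27 (limma adjusted p = 0.239).

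Among the cytotoxic genes, Nkg7 rose in adipose tissue. It was 1.37, 0.591, 0.929 and 0.524 at 5 months and 3.77, 1.36, 12.2, 2.39 and 6.57 at 20 months. Sample 37 just failed to exceed animal A and the other old samples were higher than all the young ones. The log2 change was 1.81 ± 0.50 (limma adjusted p = 0.0429). Cd8a, Cd8b1 and Nkg7 were thus the 3 of 10 genes called higher in adipose tissue, where 7.11% of tested genes were called higher and 7.09% lower. All 3 calls were lost when 20-month sample 38, 39 or 40 or animal A or B was left out, 2 remained called without animal C and 1 without animal D, and without sample 37 the number called was 7. Over all genes, the 9 fits that each left out 1 adipose library called 333 to 3961 in either direction. The unadjusted p needed to pass thus differed between these fits. The count tests run on the recovered reads called 5 (edgeR) and 7 (DESeq2) of the 10. Of all 18121 tested genes they called 1432 (edgeR) and 2447 (DESeq2) higher.

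In liver Nkg7 was 0.764, 0.291, 0.214 and 0.320 at 5 months and 0.611, 1.002, 4.61, 1.02 and 2.81 at 20 months, with 4 of 5 old samples above the young range. Its change of 1.28 ± 0.41 missed the threshold (limma adjusted p = 0.0555). It passed in edgeR (adjusted p = 0.0392) and in DESeq2 (adjusted p = 0.00489).

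The granzymes differed from one another. Gzmk in adipose tissue was 0.0957, 0.259, 0.199 and 0.0291 at 5 months, or 1 to 7 reads, and 1.002, 0.234, 3.81, 0.609 and 2.27 at 20 months, or 6 to 128 reads. The old samples other than 37 exceeded all the young ones, but the change of 1.42 ± 0.46 did not pass (limma adjusted p = 0.0614, 0.0433 without sample 37, edgeR adjusted p = 0.0370). Gzma in adipose tissue was 0.255, 0.0369, 0.199 and 0.320 at 5 months and 0.295, 0.389, 0.178, 0.328 and 0.149 at 20 months. The ages overlapped throughout, with a log2 change of 0.14 ± 0.16 (limma adjusted p = 0.556), and sample 38, the highest for Gzmk, had one of the lowest Gzma values. In liver, Gzmk was listed at 0 in 3 of 4 young samples and at 0 to 0.742 in the old ones, and Gzma ranged from 0.0636 to 0.560 and from 0.114 to 0.752. Neither passed (0.35 ± 0.29 and 0.36 ± 0.27, limma adjusted p = 0.419 and 0.362). Gzmk overlaps Esm1 on the opposite strand, and whether the count used strand is not given in the sources used here.

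Pdcd1 was the gene of the 10 whose adipose level was not higher on average at 20 months. It was 3.57, 2.59, 2.16 and 1.43 at 5 months and 2.59, 0.740, 3.63, 1.01 and 3.05 at 20 months, and the ages overlapped over most of their range. The log2 change was -0.22 ± 0.39 (limma adjusted p = 0.702), and 0.02 without sample 37. In liver Pdcd1 gave at most 3 reads per library at 5 months. At 20 months it was 1.38 in sample 18 and 0.451 in sample 74, and 1 read was counted in each of the other 3 (0.48 ± 0.35, limma adjusted p = 0.359).

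**Figure D2:**
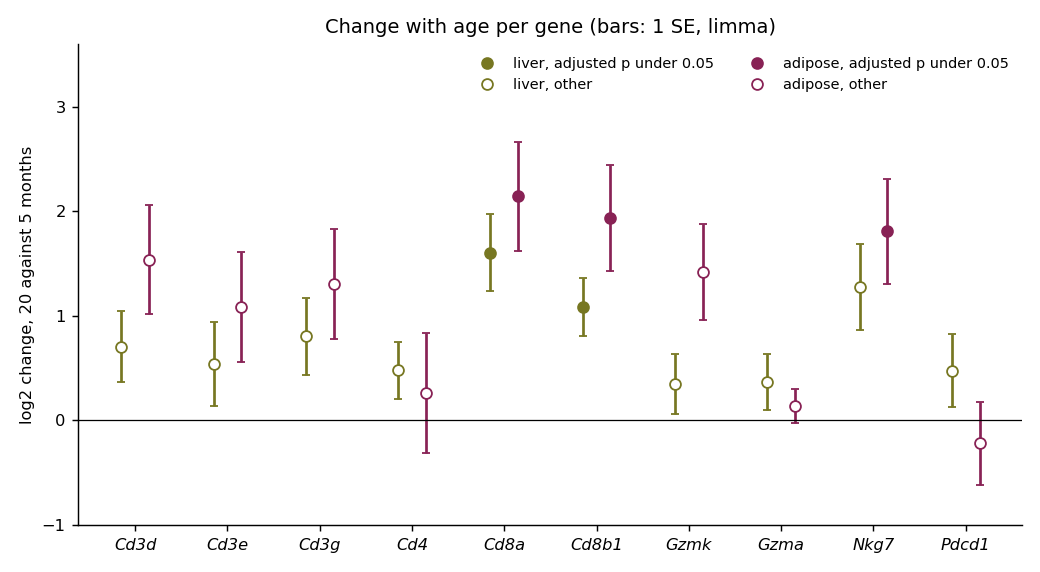
Change in log2(value + 0.5) from 5 to 20 months for each gene in liver and adipose tissue, with 1 SE from limma (4 young and 5 old samples per tissue). Filled points have an adjusted p under 0.05: Cd8a and Cd8b1 in liver (1.60 and 1.08) and Cd8a, Cd8b1 and Nkg7 in adipose tissue (2.14, 1.94 and 1.81). Pdcd1 in adipose tissue is the single point below 0.

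In muscle most of the genes were too rare to test. Cd3e alone reached the minimum mean value of 0.1, with 0 to 4 reads per library, and it was not called (-0.26 ± 0.21, limma adjusted p = 0.447), where 5.89% of tested genes were called higher and 7.15% lower. Cd3g and Cd4, below that mean, stood above the young range in 4 of 5 old samples, on at most 3 and 5 reads per library. With no filter all 10 genes were tested and none was called. At these counts the data do not settle whether the genes differed with age in muscle.

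Relative to the CD3 reads of the same library, the make-up of the T cell transcripts differed between the ages. This ratio, taken after adding 0.5 read to each side, does not depend on the scaling between libraries. It was tested in liver and adipose tissue, where each library had at least 10 CD3 reads, as 14 ratios by exact two-sided permutation of the samples, for which the smallest possible p is 0.00794. In adipose tissue the reads of Cd8a and Cd8b1 together were 0.575, 0.221, 0.336 and 0.266 per CD3 read at 5 months and 0.679, 1.01, 0.833, 0.665 and 0.713 at 20 months, with no overlap. The mean log2 ratio was higher by 1.24 (exact p = 0.00794, adjusted 0.0278). Cd4 went the opposite way, with 0.778, 0.805, 1.21 and 0.690 reads per CD3 read at 5 months and 0.489, 0.242, 0.267, 0.470 and 0.490 at 20 months. Its log2 ratio fell by 1.19 (exact p = 0.00794, adjusted 0.0278). The ratio of CD8 to Cd4 reads was 0.740, 0.274, 0.277 and 0.385 at 5 months and 1.39, 4.18, 3.12, 1.42 and 1.45 at 20 months, a log2 difference of 2.43 (exact p = 0.00794, adjusted 0.0278). Sample 37, the old sample with the fewest CD3 reads, had the highest CD8 to Cd4 ratio of the adipose samples.

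Pdcd1 reads per CD3 read in adipose tissue were 0.556, 0.723, 0.444 and 0.333 at 5 months and 0.154, 0.242, 0.118, 0.110 and 0.156 at 20 months. All old samples lay below all young ones, and the log2 ratio fell by 1.72 (exact p = 0.00794, adjusted 0.0278). Nkg7 per CD3 read was 0.125 to 0.215 at 5 months and 0.223 to 0.441 at 20 months, higher by 0.90 on the log2 scale (exact p = 0.0159, adjusted 0.0317). Gzmk per CD3 read was higher by 1.63 (exact p = 0.0238, adjusted 0.0417), from young values that rest on 1 to 7 Gzmk reads, and the 2 ages overlapped. It kept an exact p under 0.05 in 1 of 9 fits that left out a library (exact p up to 0.0857), where the other adipose ratios that passed did so in 9 of 9. Gzma per CD3 read differed by -0.84 without passing (exact p = 0.405, adjusted 0.515).

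In liver the ratio of CD8 to Cd4 reads was 0.789, 0.882, 0.692 and 0.882 at 5 months and 3.67, 2.86, 2.74, 1.52 and 3.72 at 20 months, with no overlap, a log2 difference of 1.78 (exact p = 0.0159, adjusted 0.0317). CD8 reads per CD3 read were 0.556, 0.517, 0.290 and 0.224 at 5 months and 1.18, 1.24, 0.847, 0.612 and 0.854 at 20 months, a difference of 1.31 (exact p = 0.0159, adjusted 0.0317). The young liver values of both ratios rest on 4 to 7 CD8 reads per library. Those set against Cd4 also rest on 6 to 9 Cd4 reads, since the minimum of 10 reads applied to CD3 alone. Cd4 per CD3 read in liver differed by -0.47 (exact p = 0.198, adjusted 0.278) and Pdcd1 by 0.22 (exact p = 0.841, adjusted 0.841), neither of which passed. Whether the age difference of a ratio differed between liver and adipose tissue was not tested.

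Of the 14 ratios, 8 had an exact p under 0.05, 2 in liver and 6 in adipose tissue. With Cd3e alone in the denominator, Cd4 in adipose tissue no longer passed (log2 difference -0.996, exact p = 0.0556) and the other CD3 ratios that had passed still did. With Ptprc, the CD45 gene of all leukocytes, in the denominator, the CD8 genes passed in liver (1.19, exact p = 0.0238) and Pdcd1 in adipose tissue (-1.97, exact p = 0.0159), while Cd8a with Cd8b1, Nkg7, Gzmk and Cd4 in adipose tissue did not (exact p = 0.159, 0.270, 0.183 and 0.0952).

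**Figure D3:**
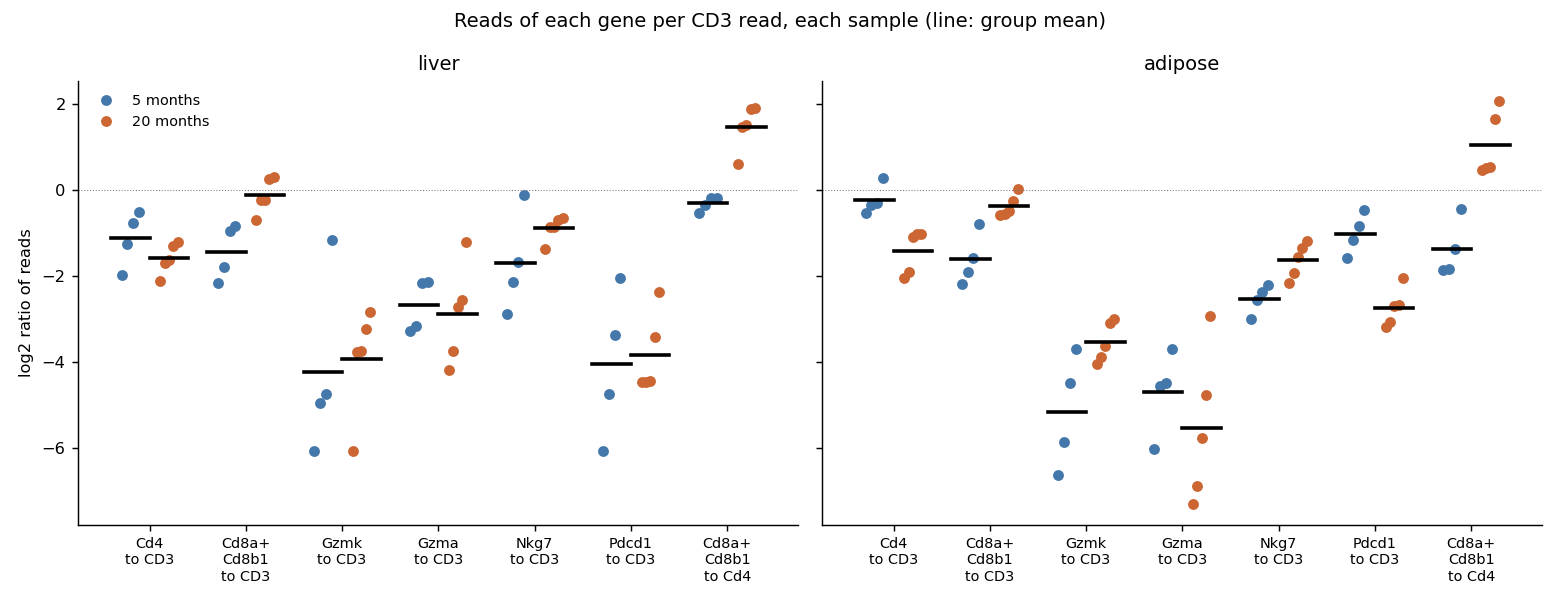
Reads of each gene per CD3 read (Cd3d, Cd3e and Cd3g summed) and of the CD8 genes per Cd4 read, as log2 ratios after adding 0.5 read to each side, in every liver and adipose sample (blue: 5 months, n = 4; orange: 20 months, n = 5; line: mean). The CD8 to Cd4 ratio stands higher at 20 months in both tissues without overlap. In adipose tissue Pdcd1 and Cd4 per CD3 read stand lower at 20 months without overlap.

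Set against one another, the age changes of liver and adipose tissue were called different for none of the 10 genes (limma, 0 called and 1 gene at an unadjusted p under 0.05, edgeR and DESeq2 0 called), where 12.7% of tested genes did in either direction. The difference of the changes, liver minus adipose, was -0.54 ± 0.58 for Cd8a and -0.85 ± 0.51 for Cd8b1 on the log2 scale, each less than 2 SE from 0. Young liver values of both genes lay below the pseudocount of 0.5, which understates their liver changes. The means differed 8.63-fold in liver and 6.41-fold in adipose tissue for Cd8a, and 5.09-fold and 7.13-fold for Cd8b1. Liver minus muscle gave 0 calls as well (2 genes at an unadjusted p under 0.05, edgeR 0 and DESeq2 1), where 14.8% of tested genes were called. Adipose tissue minus muscle was called higher for Cd8a (2.15 ± 0.58, limma adjusted p = 0.0178), Nkg7 (2.02 ± 0.59, 0.0263) and Cd8b1 (1.83 ± 0.51, 0.0212), where 6.92% of tested genes were. These genes passed the minimum mean of the fit of 27 samples through liver and adipose tissue and not through muscle, where Cd8b1 had no read in any young sample, so their muscle change rests on the pseudocount and the values add little to the change in adipose tissue alone. On the recovered reads edgeR called none of the 10, with Cd8b1 at -0.19, and DESeq2 called 1.

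Between tissues of the same age, none of the 10 genes was called lower in adipose tissue than in liver or muscle, or lower in liver than in muscle. At 5 months adipose tissue exceeded liver for Pdcd1, Cd4, Cd3e, Cd3g and Cd8a, 5 of 10 (40.9% of all tested genes were called higher), by 2.32, 2.10, 1.52, 1.07 and 0.99 on the log2 scale. Adipose tissue exceeded muscle at 5 months for 8 of 10, all but the granzymes (41.1% of tested genes). Liver exceeded muscle at 5 months for Cd4 alone (1.03, limma adjusted p = 0.0358, beside 32.7% of tested genes). At 20 months adipose tissue exceeded liver for 9 of 10 genes (38.4% of tested genes), the exception being Gzma at -0.25 (limma adjusted p = 0.272). Adipose tissue exceeded muscle for 9 of 10, again without Gzma (41.0% of tested genes). Liver exceeded muscle for 8 of 10, without Gzmk and Pdcd1 (36.4% of tested genes). In muscle only Cd3e reached the minimum mean, and none of the 10 genes had more than 5 reads in a sample. The others entered the fit through adipose tissue and liver. The sizes of the contrasts with muscle thus rest on the pseudocount, and the calls add little to the low muscle counts themselves. The contrasts of 1 age share their samples and are not independent of each other.

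Over the 10 genes the median change was 0.62 in liver, with 10 of 10 above 0, and 1.36 in adipose tissue, with 9 of 10 above 0. The pseudocount understates changes of low genes, and most of the 10 were lower in liver, so the sizes of these medians are not comparable. Other genes of T cell receptor signalling had changes of the same sign. Of 18 in that list, 15 were tested in liver and 4 were called higher, none lower, where 8.09% of all tested genes were called higher: Cd2, Lck, Lat and Ubash3a. The largest change among the called was that of Lat, an adaptor in the signalling of the receptor, from 0.280 ± 0.181 to 1.53 ± 0.403 (SD, log2 change 1.38 ± 0.22, limma adjusted p = 0.00738), and its ages did not overlap. Lck, the kinase bound to CD4 and CD8, changed by 1.33 ± 0.36 (limma adjusted p = 0.0312). In adipose tissue 15 were tested and 3 were called higher, none lower, beside 7.11% of all tested genes: Cd2 (1.57 ± 0.44), Il7r (1.30 ± 0.31) and Cd247 (1.25 ± 0.29), at limma adjusted p of 0.0445, 0.0303 and 0.0288. All 15 had changes above 0 in both tissues, with a median of 0.72 in liver and 1.25 in adipose tissue, beside medians of 0.05 and -0.02 over all tested genes. In muscle 10 were tested and none was called.

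Of 14 further cytotoxic effector genes, 1 of 12 tested was called higher in liver, a share near the 8.09% of all tested genes, and 3 of 14 in adipose tissue, beside 7.11% of all tested genes. None was called lower. Ccl5, the chemokine released by effector T and NK cells, was called in both: 1.09 ± 0.122 to 7.71 ± 6.86 in liver (log2 change 2.04 ± 0.43, limma adjusted p = 0.0146) and 3.40 ± 1.81 to 17.2 ± 13.1 in adipose tissue (1.95 ± 0.54, limma adjusted p = 0.0436). Eomes and Tbx21, the transcription factors of effector and memory CD8 T cells and NK cells, were called in adipose tissue (1.66 ± 0.46 and 1.37 ± 0.37, limma adjusted p = 0.0430 and 0.0411), with no overlap between ages for either. Prf1, the pore-forming perforin, and Gzmb were not called in either tissue. The NK cell list gave no call in any tissue. Its genes were low throughout, the 6 genes summing to 0.254 to 1.75 in liver and 0.611 to 2.15 in adipose tissue over both ages. Ncr1, the defining NK receptor of that list, was 0.227 ± 0.233 at 5 months and 0.247 ± 0.146 at 20 months in adipose tissue (0.06 ± 0.22, limma adjusted p = 0.854) and 0.0159 ± 0.0318 and 0.172 ± 0.178 in liver (0.35 ± 0.20, limma adjusted p = 0.239). Klrb1c changed by 0.11 ± 0.26 in adipose tissue and -0.21 ± 0.27 in liver, and 4 of the 6 in liver and 1 in adipose tissue did not reach the minimum mean.

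Of the 10 genes for checkpoint receptors and PD-1 ligands, 3 were called higher in adipose tissue, 7 were not called and none was lower. There 7.11% of all tested genes were called higher. The 3 were Havcr2 (TIM-3, 1.40 ± 0.37, limma adjusted p = 0.0376), Lag3 (1.13 ± 0.30, 0.0383) and Cd274, which encodes the PD-1 ligand PD-L1 (0.74 ± 0.20, 0.0411). Cd274 was 13.6 ± 3.34 at 5 months and 22.9 ± 4.78 at 20 months (SD), without overlap, and Havcr2 and Cd274 are also expressed by myeloid cells. In liver Cd274 (1.12 ± 0.35, limma adjusted p = 0.0496) and Btla (1.09 ± 0.26, 0.0196) were called higher and Tox lower (-0.95 ± 0.25, 0.0287). Of all tested genes in liver, 8.09% were called higher and 6.93% lower. Tox, a transcription factor of exhausted T cells, was at 19.7 ± 8.34 in young livers, where CD3 genes were under 1.2. The regulatory T cell list had no call in liver or adipose tissue among its 5 genes (Foxp3, Il2ra, Ikzf2, Tnfrsf18 and Tnfrsf4), with medians of 0.46 and 0.31. Foxp3 changed by 0.46 ± 0.18 in liver and 0.41 ± 0.35 in adipose tissue (limma adjusted p = 0.0985 and 0.405). In muscle Ikzf2 alone of the 5 was called, higher by 0.54 ± 0.13 (limma adjusted p = 0.0246), beside 5.89% of all tested genes. The 5 genes summed to 12.3 to 22.2 in muscle, where the CD3 genes together gave 0 to 8 reads per library. Which cells gave the Ikzf2 reads was not tested.

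**Figure D4:**
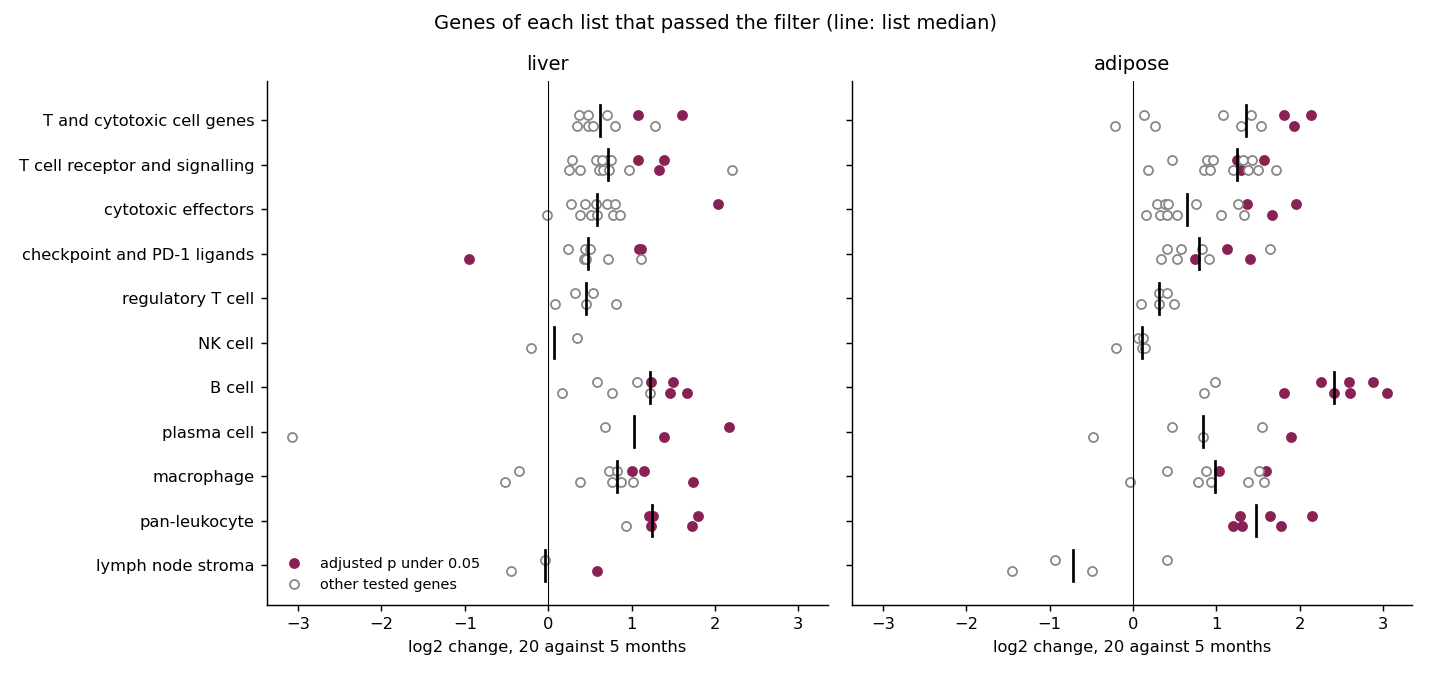
Change in log2(value + 0.5) from 5 to 20 months for every tested gene of 11 lists, in liver and adipose tissue. Each point is 1 gene, filled where the limma adjusted p is under 0.05, and the black line is the list median. In adipose tissue the B cell list lies farthest to the right (median 2.41) and the NK cell list close to 0 (median 0.11).

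Other leukocyte genes moved with those of T cells, and their part in the results was not tested. Beside the counts that follow, 7.11% of all tested genes were called higher in adipose tissue and 8.09% in liver. In muscle 7.15% of all tested genes were called lower. In adipose tissue 7 of 9 B cell genes were called higher, none lower, with a median change of 2.41, above the 1.36 of the 10 T and cytotoxic genes. Ms4a1, which encodes CD20, went from 1.27 ± 1.01 to 17.98 ± 16.3 (SD, log2 change 3.05 ± 0.76, limma adjusted p = 0.0335), and Cd79a by 2.88 ± 0.72 (0.0339). The summed B cell level was 7.39 to 28.3 at 5 months and 21.9 to 227 at 20 months. In liver 4 of 9 B cell genes were called higher, none lower, with a summed level of 2.69 to 11.3 at 5 months and 12.4 to 23.8 at 20 months, the largest change being that of Cd79b (1.67 ± 0.36, limma adjusted p = 0.0147). All 6 pan-leukocyte genes were called higher in adipose tissue and 5 of 6 in liver, Ptprc by 1.64 ± 0.28 and 1.25 ± 0.33. Macrophage genes were called higher for 2 of 10 tested in adipose tissue (Adgre1 and C1qa) and 3 of 11 in liver (C1qa, C1qb and Lyz2). Of the plasma cell list, Mzb1 was called higher in both tissues and Jchain in liver, while the summed level of the list in liver had a median of 47.5 at 5 months and 15.3 at 20 months. Derl3 of that list was 48.7 ± 51.9 and 1.38 ± 0.464 in liver (SD), and was not called (-3.07 ± 1.16, limma adjusted p = 0.0920). In muscle 5 of 10 macrophage genes were called lower, with no B cell, plasma cell or pan-leukocyte call.

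Adipose sample 37 stood apart among the old samples. Its 10 T and cytotoxic genes summed to 9.73 and its B cell genes to 21.9, the lowest of the 5 old samples, whereas its macrophage genes summed to 3959 and its pan-leukocyte genes to 638, within the range of the others. Its lymph node stroma genes summed to 8.64, where the other 8 adipose samples held 41.0 to 118. Of the 5 genes in that list, Ccl21a, the chemokine that draws T cells into lymph nodes, was 2.30 in sample 37 and 46.1 ± 33.4 over the old group (SD), beside 82.0 ± 27.2 in the young group. Neither Ccl21a (-1.46 ± 0.89, limma adjusted p = 0.253), Ccl19 (-0.94 ± 0.48, 0.183) nor Cxcl13 (-0.49 ± 0.38, 0.364) was called, and Madcam1 did not reach the minimum mean. The median change of the 4 tested genes of that list was -0.71, and the summed levels of the list overlapped between the ages. The part of lymph node stroma in the results was not tested. Skeletal myofibre genes in adipose tissue summed to 328 to 868 at 5 months, to 578 in sample 37 and to 102 to 153 in the other old samples, and the part of this in the results was not tested. Hepatocyte genes in adipose tissue summed to 1881 to 3234 at 5 months and 92.2 to 749 at 20 months. Of these 6 genes only Cyp2e1 was called, lower, while 4 had changes above 0 and the list median was 0.28. The 2 haemoglobin genes Hba-a1 and Hba-a2 were called lower in adipose tissue, beside 7.09% of all tested genes. Cela1 of the pancreas acinar list was called higher in liver and adipose tissue. Of the 6 genes of that list, 2 were tested in liver and Cela1 alone in adipose tissue. In liver 4 of 5 erythroid genes were called higher, beside 8.09% of all tested genes. In muscle 3 of 5 were called lower, beside 7.15% of all tested genes. S100a8 of the neutrophil list was called higher in adipose tissue (1.22), Cidec of the adipocyte list lower in liver (-1.81), and no skeletal myofibre gene was called in any tissue.

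**Figure D5:**
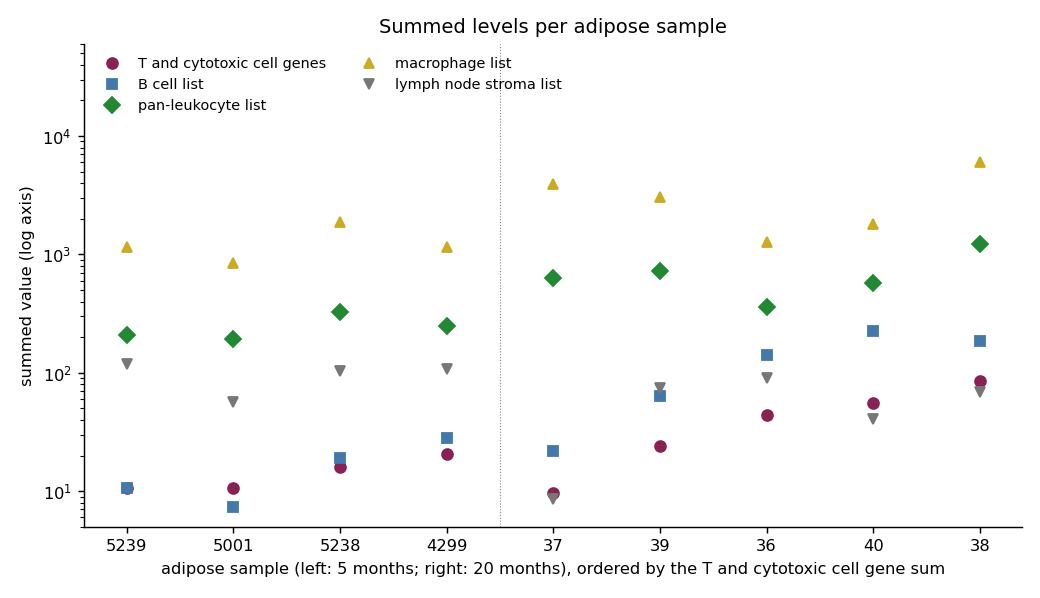
Summed deposited value (log axis) of the 10 T and cytotoxic genes and of 4 marker lists in each adipose sample, 4 at 5 months on the left and 5 at 20 months on the right, ordered within each age by the sum of the 10 genes. Sample 37 has the lowest sum of the 10 genes (9.73) and of lymph node stroma genes (8.64), while its macrophage sum (3959) is the second highest.

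The genes whose pattern over the 9 samples of a tissue was most like that of CD3 differed between tissues. The measure was Pearson's r with the mean standardised log2 level of Cd3d, Cd3e and Cd3g, over 9 samples that share age groups and libraries, and it is given as a description. In adipose tissue the 5 nearest of 15168 genes were Tbc1d10c (0.991), Ltb (0.988), Lck (0.987), Btla (0.985) and S1pr4 (0.982), which are lymphocyte genes. In liver the 5 nearest of 13628 were Traf2 (0.950), Car1 (0.946), Sirt6 (0.941), D630003M21Rik (0.938) and Adgrl1 (0.937), which are not T cell markers, where CD3 values rest on 13 to 137 reads per library.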

How the data were processed

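RNA was taken from liver, omental adipose tissue and skeletal muscle of MlxKO mice, and gene-level reads were obtained by the authors with CLC Genomics Workbench. The deposited values are labelled CPM but do not sum to the same total per sample (559419 to 1395315), so they were treated as a scaled signal that the authors had divided by a factor of each sample. The aligner settings, and whether strand was used in counting, are not given in the sources used here, and GRCm38.p6 and mm10 are the builds in the submitters' processing notes. Divided by what 1 read is worth in its sample, 100.0% of values came out whole within 0.1 reads, which gave the reads behind each value.

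Values were analysed as log2(value + 0.5), so changes of low genes are understated. Age was tested within each tissue with limma 3.58.1 and a variance trend (R 4.3.3), over genes with a mean of at least 0.1, with Benjamini-Hochberg adjustment over all genes tested and a threshold of 0.05. Contrasts across tissues came from 1 fit of 27 samples. The plan had assumed plain CPM, and limma was kept. edgeR 4.0.16 and DESeq2 1.42.0 were run on the recovered reads as alternatives. In adipose tissue edgeR called 1432 genes higher and 1048 lower, in liver 1283 and 1234. Ratios within a library were tested by exact two-sided permutation of samples, after adding 0.5 read to each side. Tables were handled in Python 3.11.15 with pandas 2.3.3 and drawn with matplotlib 3.10.9, and the fit was tested on simulated data.

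The 20-month samples are separate libraries whose labels do not say whether tissues shared an animal, and p-values measure only the spread between the samples. The 5-month tissues of 1 animal share its number in the labels, and the deviations from the group means of such pairs correlated at -0.0158 to 0.242 (12 pairs of tissues, mean 0.116), so the animal was used as a block in an alternative fit. Reads of 48 pairs of libraries of the same group differed by more than sampling noise (chi-square per degree of freedom 9.21 to 202), so none was counted as a repeat.

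The 10 genes and the 16 other lists (123 genes) were chosen with earlier results of these data known. Named by rule were the 10 genes, the called genes with the largest change in each list, the genes of short lists that touch a result, and the 5 genes per tissue most like CD3, of which those of muscle are not reported here. Prf1, Gzmb and further called genes of the lists were named after their values were seen. Alternatives changed the pseudocount, filter, scaling, variance model, test, samples and denominator. Floors of 3 reads cover counting error only, while the ± values are SE from limma or SD between samples. Wild-type samples were not analysed here.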

Additional observations from a re-analysis of the deposited data

Results flagged for a closer look

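Within groups of 4 or 5 samples, 1 sample lay far from the others in 6 of 57 groups of a gene, where chance gives about 1 in 20. That rate does not apply to 5 of the 6, since the rest of the group was at 0 and any read would stand apart. In muscle these were Cd3d in animal C at 5 months (0.157, 2 reads), Cd4 in animal D at 5 months (0.0697, 1 read), Pdcd1 in animal B at 5 months (0.0806, 1 read) and Pdcd1 in sample 59 at 20 months (0.0735, 1 read), each beside 0 in the rest of its group. In liver Gzmk stood at 0.436 (6 reads) in animal B and at 0 in the other young animals. In adipose tissue Cd3g was low in animal B at 0.443 (12 reads), where the other young animals held 1.79 to 2.02.

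The age change was larger in adipose tissue than in muscle for Cd8a by 2.15, for Nkg7 by 2.02 and for Cd8b1 by 1.83 on the log2 scale, by the contrast between tissues in limma. The muscle values of these genes rest on 0 to 3 reads per library and so on the pseudocount, edgeR called none of these and gave -0.19 for Cd8b1, and DESeq2 called 1 of the 10 genes.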

How the results depend on the processing

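The number of the 10 genes called moved beyond 1.5 times under these settings. In liver (2 in the report) it was 1 with a minimum mean of 1 and with a value of at least 1 in 4 samples together with a pseudocount of 1, each of which left 2 genes to test. In adipose tissue (3) it was 1 with no filter, 5 in edgeR, 7 in DESeq2 and 6 with all 27 samples in 1 fit. For liver minus adipose (0) it was 1 with sample weights. For liver minus muscle (0) it was 2 with a pseudocount of 0.1, 1 with sample weights and 1 in DESeq2. For adipose minus muscle (3) it was 0 in edgeR, where Cd8b1 turned to -0.19, and 1 in DESeq2. For adipose against liver at 5 months (5) it was 8 on reads per total without a composition factor. For liver against muscle at 5 months (1) it was 0 with a pseudocount of 1, with or without the filter on 4 samples, with no filter, and on reads per total, 2 with sample weights, and 4 with a pseudocount of 0.1, in edgeR and in DESeq2. With Ptprc in place of CD3 as denominator, 4 ratios passed in place of 8, of which 2 are CD8 to Cd4 ratios that hold no CD3 and could not change, so 2 of the other 6 remained. The cause of these moves was not tested.

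Leaving out 1 library gave 1 to 4 calls in liver, 0 to 7 in adipose tissue and 0 in muscle. It gave 0 to 1 for liver minus adipose, 0 to 2 for liver minus muscle, 1 to 6 for adipose minus muscle, 3 to 6 for adipose against liver at 5 months, 0 to 2 for liver against muscle at 5 months, and 7 to 9 ratios. With the animal as a replicate block, 3 genes were called for adipose minus muscle, and the number called in the other contrasts across tissues was that of the fit without it.

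Over all genes, adipose calls were 1289 higher and 1285 lower in the report, 4394 and 4251 with sample weights, 789 and 832 with no filter, 2447 and 2213 in DESeq2, and 2741 and 2813 with all 27 samples. Liver calls went from 1312 and 1123 to 2293 and 1882 with sample weights, and to 2781 and 314 on reads per total, with the median of all genes at 0.23 in place of 0.05. Muscle calls went from 985 and 1196 to 1904 and 836 on reads per total. Depth limits the lowest values, 3 reads being worth 0.196 to 0.242 in muscle and 0.1503 to 0.240 in liver.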
